A study of Mus musculus with 16 samples.

Results

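Mitochondrial beta oxidation in mouse liver was followed through 10 genes: Cpt1a, Slc25a20, Cpt2, Acadm, Acadl, Hadha, Hadhb, Hadh, Acaa2 and Decr1. They were chosen by name for their place in the pathway, and all 10 were measured among the 18820 genes tested. Each gene was read from the probe set that carried only its symbol, and for Hadhb, which had more than 1 such probe set, from the one with the higher mean. The livers came from male mice aged 14 to 16 weeks on a C57Bl/6J background, housed singly on chow. There were 4 groups of 4 arrays: fed wild type (fed WT), fed vanin-1 knockout (fed KO), wild type fasted for 24 h (fasted WT) and vanin-1 knockout fasted for 24 h (fasted KO). The knockout mice lacked vanin-1, with no driver or cell type named for the deletion, and wild type mice served as controls. The comparisons ask how a fast changes these genes in each genotype, and whether loss of vanin-1 moves them in either feeding state.

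Beta oxidation shortens fatty acids inside mitochondria, releasing acetyl-CoA and reduced electron carriers. Long-chain acyl groups enter the organelle as carnitine esters: carnitine palmitoyltransferase 1 (Cpt1a in liver) makes the ester at the outer membrane, the carrier Slc25a20 exchanges it across the inner membrane, and Cpt2 turns it back into acyl-CoA. Each turn of the spiral then has a dehydrogenation, a hydration, another dehydrogenation and a thiolytic cleavage. In liver the pathway is known as the source of acetyl-CoA for ketone bodies during fasting, and the nuclear receptor PPARα is known to activate many of its genes. Vnn1 encodes vanin-1, a pantetheinase, an enzyme that releases pantothenate, the precursor of the coenzyme A to which acyl groups are bound.

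The values were log2 RMA intensities, an array measure of transcript level per probe set, and arrays are named below by group and title number. All 10 genes lay above the highest array median (5.29) on every array, between 9.51 and 12.95. All 8 hepatocyte markers, including Alb and Ttr, also lay above it on every array. Vnn1, the targeted gene, lay at 8.91 ± 1.61 in fed WT and 10.81 ± 0.69 in fasted WT, against 3.89 ± 0.12 in fed KO and 3.98 ± 0.30 in fasted KO (SD, n = 4). Its arrays therefore matched their genotype labels in both feeding states. Some arrays stood apart in other transcripts. On fasted WT 4 the mean of 4 pancreas markers was 8.62, against 3.69 to 4.04 on the other 15 arrays, and on fed KO 4 the mean of 5 acute phase genes was 12.6, against 7.82 to 10.5. On fed WT 4 the mean of 7 macrophage markers was the highest of the series, at 8.97 against up to 8.43 elsewhere. The mean of 5 endothelial markers was also highest there but did not stand apart, at 9.25 against up to 9.23. In these whole-liver samples, fewer cells of a type and less RNA per cell cannot be told apart.

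Acaa2 and Decr1 were left out of the reading of start regions, so the counts below do not cover them. RefSeq start sites (build GRCm38.p6) were used for the other 8 of the 10 genes. The 250 bases before the start site are printed for 6 of them: the control point of entry (Cpt1a), the carrier (Slc25a20), the medium-chain dehydrogenase (Acadm), both subunits of the trifunctional protein (Hadha and Hadhb), and Hadh, whose fasting difference did not pass the test. Each is written 5′ to 3′ on the strand of its gene, with capitals for the nuclear receptor hexamer AGGTCA, the GC box GGGCGG and the CCAAT box on either strand. Cpt1a is at chr19:3323051-3323300 (plus strand), Slc25a20 at chr9:108661886-108662135 (plus), Acadm at chr3:153944644-153944893 (minus), Hadha at chr5:30154981-30155230 (minus), Hadhb at chr5:30155003-30155252 (plus) and Hadh at chr3:131272102-131272351 (minus).
Cpt1a: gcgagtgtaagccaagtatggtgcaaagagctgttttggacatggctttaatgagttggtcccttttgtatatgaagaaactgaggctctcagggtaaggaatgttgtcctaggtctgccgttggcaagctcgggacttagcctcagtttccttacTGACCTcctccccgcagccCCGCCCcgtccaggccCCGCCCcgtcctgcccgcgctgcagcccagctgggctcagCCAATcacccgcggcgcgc
Slc25a20: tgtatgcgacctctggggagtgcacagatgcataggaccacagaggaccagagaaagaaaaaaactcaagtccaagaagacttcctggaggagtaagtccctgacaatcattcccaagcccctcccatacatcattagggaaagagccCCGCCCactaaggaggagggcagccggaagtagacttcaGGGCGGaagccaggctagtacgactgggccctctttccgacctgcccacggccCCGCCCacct
Acadm: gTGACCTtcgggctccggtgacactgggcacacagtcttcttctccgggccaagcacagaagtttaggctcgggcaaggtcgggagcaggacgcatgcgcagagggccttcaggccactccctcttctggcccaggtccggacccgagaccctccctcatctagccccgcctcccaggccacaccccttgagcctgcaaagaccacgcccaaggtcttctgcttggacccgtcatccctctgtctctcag
Hadha: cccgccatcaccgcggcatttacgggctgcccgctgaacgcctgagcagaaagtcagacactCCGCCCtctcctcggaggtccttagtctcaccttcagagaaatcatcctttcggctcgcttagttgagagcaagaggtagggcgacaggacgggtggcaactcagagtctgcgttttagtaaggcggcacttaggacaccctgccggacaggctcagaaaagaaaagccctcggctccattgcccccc
Hadhb: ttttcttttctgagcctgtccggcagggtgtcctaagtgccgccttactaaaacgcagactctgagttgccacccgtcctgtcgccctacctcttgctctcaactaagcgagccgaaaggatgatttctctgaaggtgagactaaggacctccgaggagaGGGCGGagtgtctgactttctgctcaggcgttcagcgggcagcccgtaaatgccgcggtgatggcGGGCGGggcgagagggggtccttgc
Hadh: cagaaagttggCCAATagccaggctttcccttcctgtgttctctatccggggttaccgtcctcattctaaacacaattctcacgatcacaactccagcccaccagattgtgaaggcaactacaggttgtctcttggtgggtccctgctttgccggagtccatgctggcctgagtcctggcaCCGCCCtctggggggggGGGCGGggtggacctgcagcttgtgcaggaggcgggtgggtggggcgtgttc

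Hadha and Hadhb lie head to head. Their start sites are separated by 272 bases, and 228 bases, chr5:30155003-30155230, belong to both windows, read on opposite strands. The GC box at -188 to -183 from the Hadha start site is the one at -90 to -85 from that of Hadhb. The hexamer was found in 2 of 8 windows, at -94 to -89 in Cpt1a and at -249 to -244 in Acadm, both on the strand opposite to the gene. Among all 32851 RefSeq windows of this length 14.0% held one. The direct repeat AGGTCANAGGTCA, the arrangement that PPARα with its partner RXR is known to bind and which contains the hexamer 2 times, was in 0 of 8 windows and in 0.0335% of all. GC boxes were in 7 of 8, all but Acadm, against 32.7% of all windows, CCAAT boxes in 2 of 8 (Cpt1a and Hadh) against 33.8%, and TATAAA in 0 of 8 against 12.4%. The windows of the 8 genes held 56.8% to 68.0% G and C, where the median of all windows was 52.4%. These matches describe letters near the start sites, and no binding was measured.

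**Figure D1:**
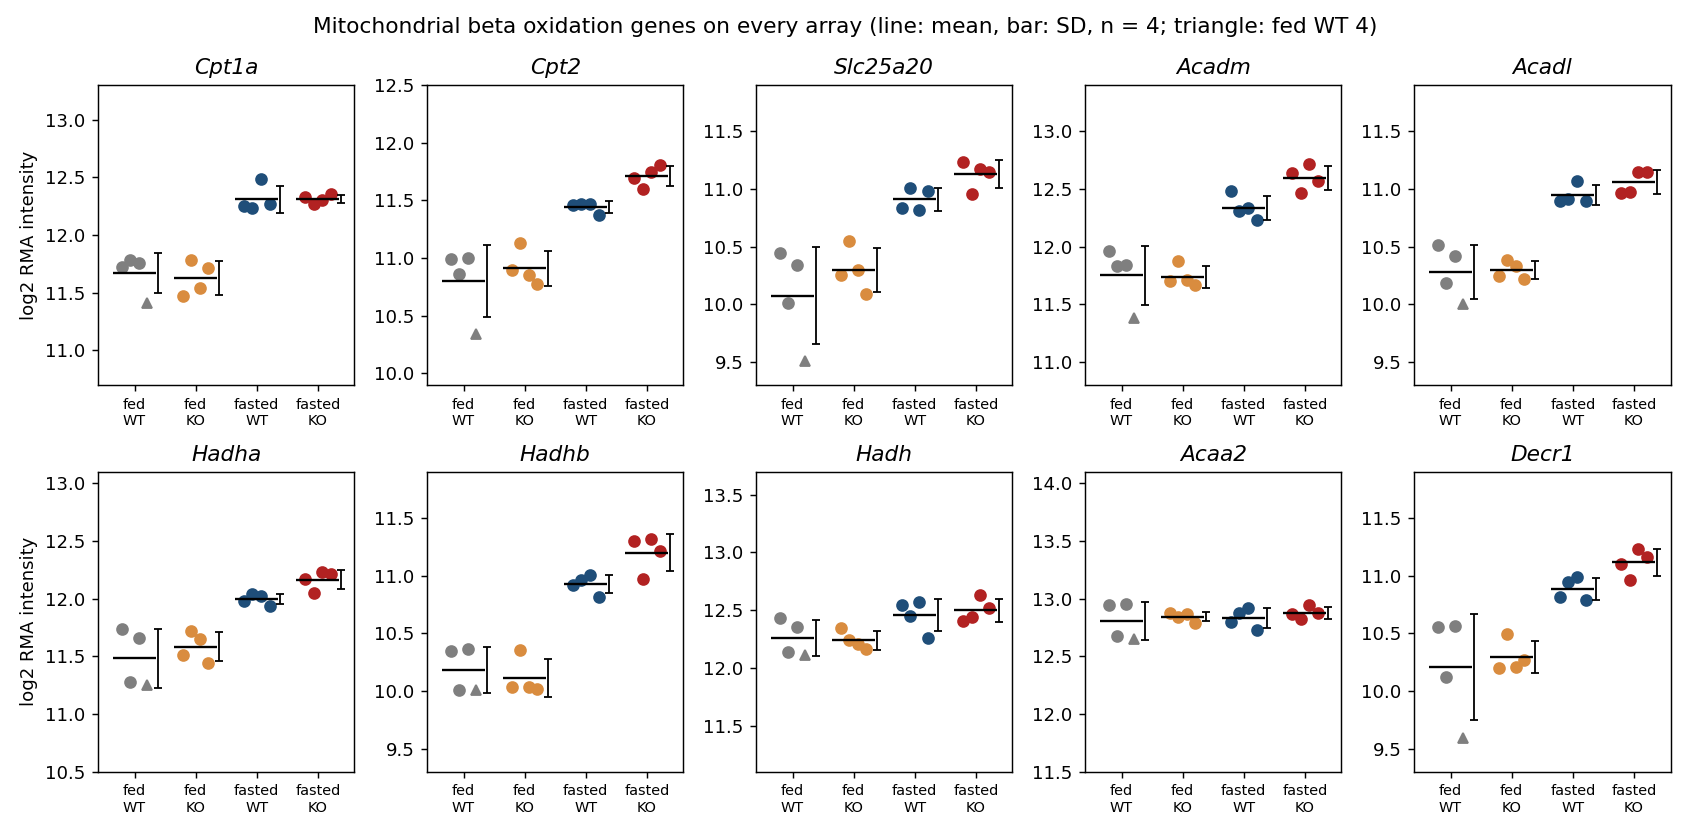
Log2 RMA intensity (vertical axis, the same span of 2.6 units in every panel) of each gene on the 16 arrays, by group, with a line at the mean, a bar of 1 SD (n = 4) and a triangle for fed WT 4. In 8 of the 10 panels every fasted WT array lies above every fed WT array, Acaa2 shows no step, and the triangle is the lowest fed WT point in all 10.

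Fasting raised 8 of the 10 genes in wild type liver: all 3 genes of the carnitine shuttle, both acyl-CoA dehydrogenases, both subunits of the trifunctional protein and Decr1. Their rises lay between 1.43-fold (Hadha) and 1.78-fold (Slc25a20). Hadh, the short-chain hydroxyacyl-CoA dehydrogenase, and Acaa2, a thiolase, did not pass the test. Of all genes tested, 3.34% were called higher, 4.27% lower and 7.61% in either direction (limma, adjusted p below 0.05). These were 629 higher and 803 lower genes, and 1014 and 542 when each array was centred on its median, with the same 8 members called. The median log2 difference of the 10 genes was 0.64, against 0.011 over all genes. Arrays of the groups did not overlap for the same 8 genes, and 6.02% of all genes lay higher without overlap.

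The same 8 genes rose in knockout liver, from 1.50-fold (Hadha) to 2.13-fold (Hadhb), and again Hadh and Acaa2 did not pass. Here 4.53% of all genes were called higher, 4.89% lower and 9.42% in either direction. The median log2 difference of the 10 genes was 0.78, against 0.020 over all genes. Arrays did not overlap for 9 of the 10 genes, Hadh included, where 8.89% of all genes lay higher without overlap. For Acaa2 the fed and fasted arrays overlapped in both genotypes.

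Some markers of other liver cells also moved with fasting. Of 5 stellate cell markers 2 fell in each genotype, the collagen gene Col3a1 (by 0.64 and 0.70 on the log2 scale) and the retinol-esterifying enzyme gene Lrat (by 0.49 and 0.54), with list medians of -0.33 and -0.44. Of these 5 markers 4 had negative differences in each genotype. The remaining difference was 0.18 in wild type and 0.08 in knockout liver, without a call. The mean of the 5 markers ran from 8.37 to 8.61 in fed WT and 8.08 to 8.36 in fasted WT. In knockout liver this mean ran from 8.35 to 8.57 when fed and 8.07 to 8.18 when fasted. Of 7 macrophage markers 1 fell in wild type, Adgre1, by 0.89, and 0 were called in knockout liver by limma (1 at an unadjusted p below 0.05), with medians of -0.37 and -0.32. Adgre1 lay at 9.32 on fed WT 4, against 8.07 to 8.50 on the other fed WT arrays. Differences were negative for 6 of the 7 markers in each genotype, while Marco differed by 0.13 and 0.63. Of 8 hepatocyte markers 1 rose in wild type, Tat, by 0.47, and 0 were called in knockout liver by limma (1 at an unadjusted p below 0.05), with medians of 0.0071 and 0.0073. The part of these cell types in the rises of the 10 genes was not tested.

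**Figure D2:**
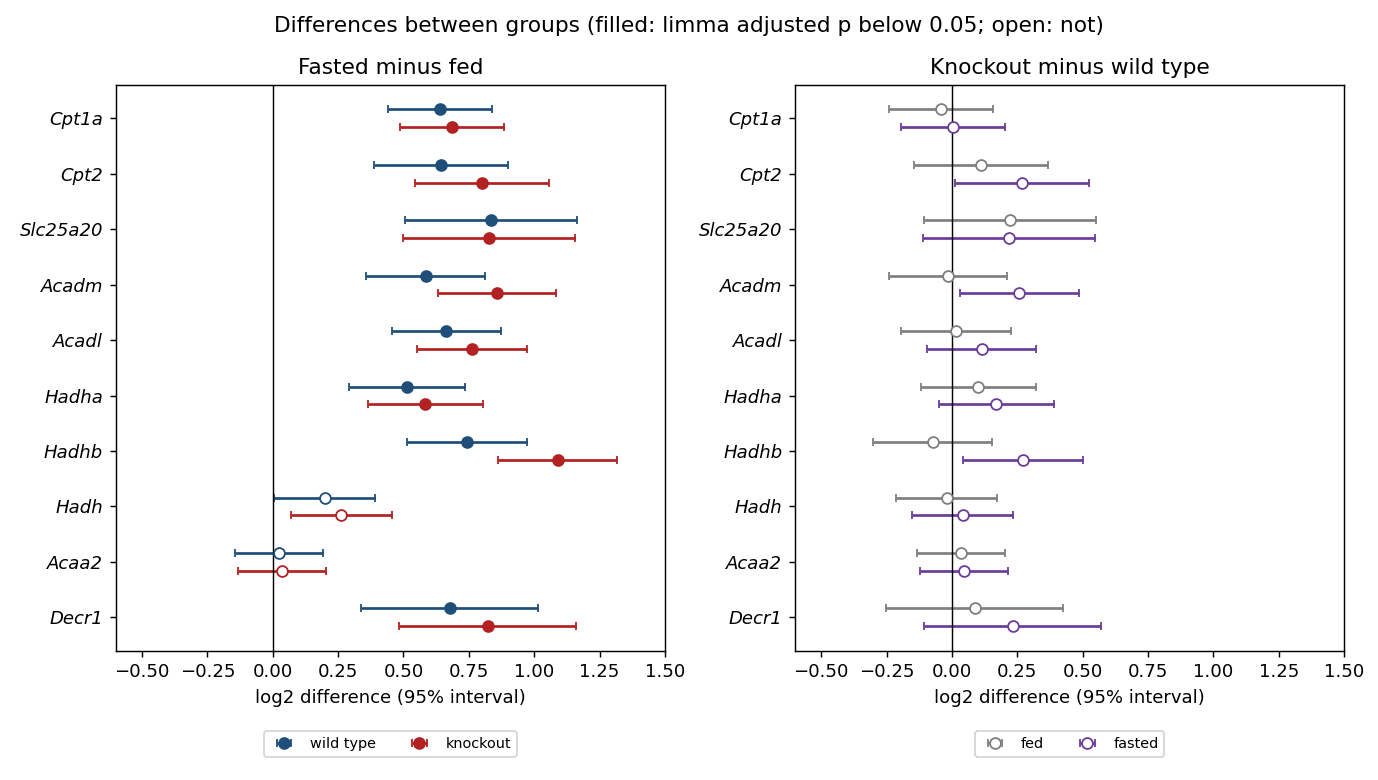
Log2 differences with 95% intervals from limma (horizontal axis), fasted minus fed on the left (blue wild type, red knockout) and knockout minus wild type on the right (grey fed, purple fasted). Filled points passed the test (adjusted p below 0.05): 8 of 10 in each genotype on the left, 0 of 10 in each feeding state on the right.

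The carnitine shuttle was described first, because it controls entry. Cpt1a, inhibited by malonyl-CoA and known as the rate-controlling step, lay at 11.73, 11.78, 11.76 and 11.41 on fed WT 1 to 4 and at 12.25, 12.23, 12.49 and 12.27 on fasted WT 1 to 4. In knockout liver it lay at 11.47, 11.78, 11.54 and 11.71 when fed, and at 12.33, 12.27, 12.30 and 12.36 when fasted. Every fasted array thus lay above every fed array, and the fasted groups had almost the same mean (12.31 ± 0.12 in WT and 12.31 ± 0.04 in KO; SD, n = 4). Cpt1a rose 1.56-fold in wild type (log2 difference 0.64, SE 0.09, limma adjusted p = 0.000615) and 1.61-fold in knockout liver (0.69, SE 0.09, limma adjusted p = 0.000198).

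Slc25a20, the carnitine-acylcarnitine translocase, varied more when fed. It lay at 10.44, 10.01, 10.34 and 9.51 on fed WT 1 to 4 and at 10.25, 10.55, 10.30 and 10.09 on fed KO 1 to 4. Fasted values were 10.83, 11.01, 10.82 and 10.98 in WT and 11.23, 10.96, 11.17 and 11.15 in KO. The lowest fasted array still lay above the highest fed one, and fed WT 4 was the lowest of all 16. The rise was 1.78-fold in wild type (log2 difference 0.83, SE 0.16, limma adjusted p = 0.00337) and 1.78-fold in knockout liver (0.83, SE 0.16, limma adjusted p = 0.00241). Its wild type rise was the largest of the 10, but without fed WT 4 it was 0.65 against 0.69 for Hadhb, and with 05 arrays alone 0.43 against 0.63 for Cpt1a.

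Cpt2, which re-forms acyl-CoA in the matrix, lay at 11.00, 10.86, 11.00 and 10.34 in fed WT and at 10.89, 11.13, 10.85 and 10.77 in fed KO. On fasting it reached 11.46, 11.47, 11.47 and 11.37 in WT and 11.69, 11.60, 11.75 and 11.81 in KO. Fasted knockout arrays all lay above fasted wild type arrays, by means of 11.71 ± 0.09 and 11.44 ± 0.05 (SD, n = 4), a difference taken up with the genotype comparison. Cpt2 rose 1.56-fold in wild type (limma adjusted p = 0.00359) and 1.74-fold in knockout liver (limma adjusted p = 0.000418).

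The acyl-CoA dehydrogenases open each turn of the spiral. Acadm, the medium-chain enzyme, lay at 11.96, 11.83, 11.84 and 11.38 in fed WT and at 11.70, 11.88, 11.71 and 11.67 in fed KO. Fasted arrays stood at 12.48, 12.31, 12.33 and 12.23 in WT and at 12.64, 12.46, 12.71 and 12.57 in KO. All fasted arrays were above all fed ones, and 3 of 4 fasted KO arrays were above the highest fasted WT array. Acadm rose 1.50-fold in wild type (log2 difference 0.58, SE 0.11, limma adjusted p = 0.00312) and 1.81-fold in knockout liver (0.86, SE 0.11, limma adjusted p = 8.57e-05). Acadl, the long-chain enzyme, rose 1.58-fold, from 10.28 ± 0.23 to 10.94 ± 0.09, in wild type (limma adjusted p = 0.000662). In knockout liver it rose 1.70-fold, from 10.29 ± 0.08 to 11.06 ± 0.10 (SD, n = 4; limma adjusted p = 0.00012).

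Hadha and Hadhb encode the α and β subunits of the mitochondrial trifunctional protein, which carries out the last 3 reactions of the spiral on long chains, and their printed start regions overlap. Hadhb lay at 10.35, 10.01, 10.36 and 10.01 in fed WT and at 10.04, 10.35, 10.03 and 10.02 in fed KO. It reached 10.92, 10.96, 11.01 and 10.82 in fasted WT and 11.30, 10.97, 11.32 and 11.22 in fasted KO. The groups were apart in both genotypes, and 3 of 4 fasted KO arrays were above all fasted WT arrays. Hadhb rose 1.67-fold in wild type (log2 difference 0.74, SE 0.11, limma adjusted p = 0.000558) and 2.13-fold in knockout liver (1.09, SE 0.11, limma adjusted p = 1.13e-05), the largest rise among the 10 genes there. The second Hadhb probe set gave nearly the same group means, 10.18, 10.12, 10.92 and 11.20 in fed WT, fed KO, fasted WT and fasted KO, against 10.18, 10.11, 10.93 and 11.20. The pair may share probes or transcripts and is no independent measurement. Hadha rose 1.43-fold in wild type, from 11.48 ± 0.25 to 12.00 ± 0.05 (SD, n = 4; limma adjusted p = 0.00605). In knockout liver it rose 1.50-fold, from 11.58 ± 0.13 to 12.17 ± 0.08 (limma adjusted p = 0.00167).

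Hadh and Acaa2 act on shorter chains in the matrix. Hadh, the hydroxyacyl-CoA dehydrogenase, lay at 12.43, 12.14, 12.35 and 12.11 in fed WT and at 12.54, 12.45, 12.57 and 12.26 in fasted WT. In knockout liver it lay at 12.35, 12.24, 12.21 and 12.16 when fed and at 12.41, 12.44, 12.63 and 12.52 when fasted. Wild type groups overlapped on 1 fasted array, and knockout groups did not overlap. The log2 difference was 0.20 in wild type (95% interval 0.01 to 0.39, limma adjusted p = 0.221) and 0.26 in knockout liver (0.07 to 0.45, limma adjusted p = 0.088). The adjusted p in knockout liver lay between 0.0477 and 0.375 over 32 other settings, under the threshold in 2 of them: with the number 05 or 07 of the array name as a block (0.0477), which made 9 genes called in knockout liver, and with array weights (0.0498).

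Acaa2, a 3-ketoacyl-CoA thiolase, lay at 12.95, 12.67, 12.95 and 12.65 in fed WT and at 12.79, 12.88, 12.92 and 12.73 in fasted WT. Knockout values were 12.87, 12.84, 12.87 and 12.79 when fed and 12.87, 12.82, 12.94 and 12.87 when fasted. The groups lay on top of each other. The 95% interval of the log2 difference ran from -0.14 to 0.19 in wild type (difference 0.02, limma adjusted p = 0.905) and from -0.13 to 0.20 in knockout liver (0.03, limma adjusted p = 0.852). These intervals end below the differences estimated for the 8 genes that rose. The direct contrast of Acaa2 with each of those genes was not tested. The highest value on any array for any probe set was 14.19, which does not show where the Acaa2 probe set itself would level off. Among the genes chosen for the pathway, Acaa2 and Hadh had the highest means over all arrays, 12.84 and 12.36, and Acadm followed at 12.11. Whether a high signal compressed the fasting differences of Acaa2 and Hadh was not tested.

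Decr1, the 2,4-dienoyl-CoA reductase, prepares polyunsaturated chains for the spiral. It lay at 10.55, 10.12, 10.56 and 9.59 in fed WT and at 10.20, 10.49, 10.21 and 10.27 in fed KO. Fasted values were 10.81, 10.94, 10.99 and 10.79 in WT and 11.10, 10.96, 11.23 and 11.16 in KO. Fed WT 4 was by far the lowest array, and the fed WT SD of 0.46 was the widest for any of the 10 genes. Decr1 rose 1.60-fold in wild type (log2 difference 0.68, SE 0.16, limma adjusted p = 0.0149) and 1.77-fold in knockout liver (0.82, SE 0.16, limma adjusted p = 0.00317). The wild type call was lost when the fit held only those groups (adjusted p = 0.0816) or left out the 3 arrays whose name ends in 2 (0.0604).

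**Figure D3:**
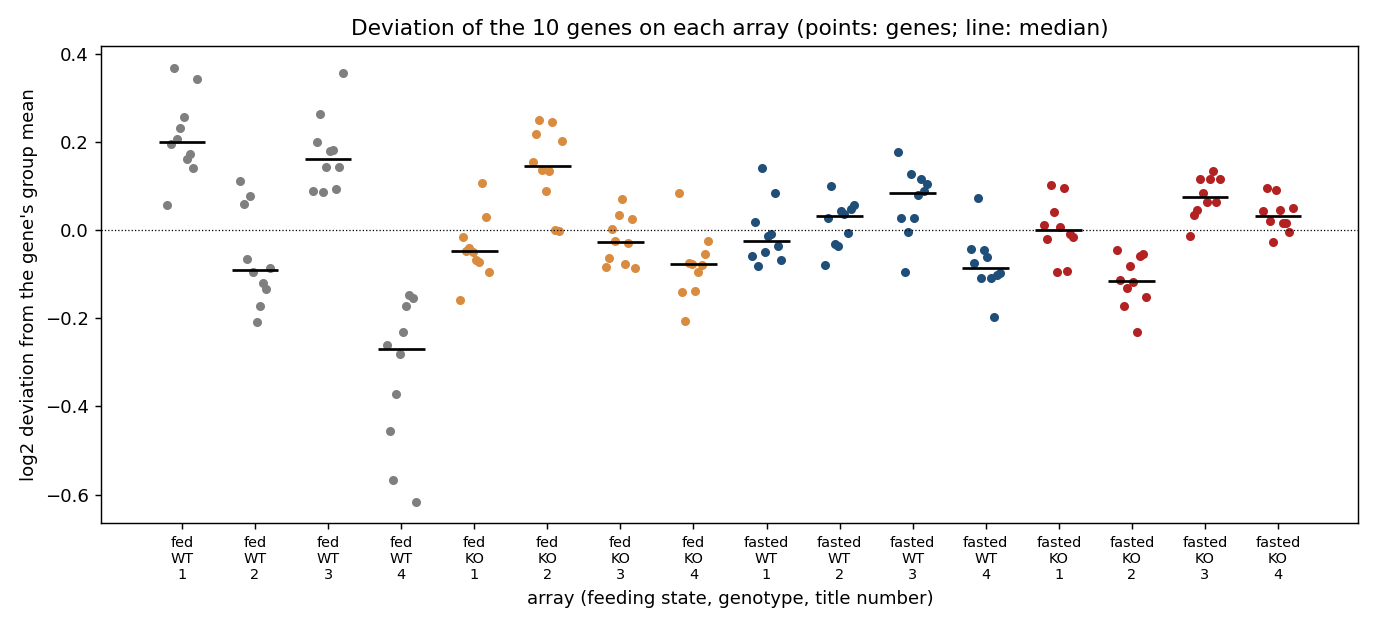
Deviation of each of the 10 genes from its own group mean on each array, in log2 units (vertical axis), with arrays along the horizontal axis and a line at the median. Fed WT 4 lies lowest at a median of -0.27, and fed WT 1 and 3 lie highest at 0.20 and 0.16.

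The 10 genes varied together from array to array within a group. Fed WT 4 was the lowest fed WT array for 10 of 10 genes, with a median deviation from the group mean of -0.27. Fed WT 1 and 3 were above the mean for all 10. Fed KO 2 was the highest fed KO array for 8 of 10, fasted WT 4 the lowest fasted WT array for 7 of 10, and fasted KO 2 the lowest fasted KO array for 8 of 10. Fed WT also had the largest SD of the 4 groups for 10 of 10 genes. Its median SD over the 10 genes was 0.24, against 0.13 in fed KO, 0.09 in fasted WT and 0.10 in fasted KO, while over all genes the median SD was 0.14, 0.13, 0.14 and 0.12.

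The array names carry the number 05 or 07, each on 2 arrays of every group, and no source used here states what it stands for. In every group, arrays 1 and 3 carry 05 and arrays 2 and 4 carry 07, so the title number is nested in this split. With 05 arrays alone the median wild type rise of the 10 genes was 0.45 (log2) and 2 genes were called, and with 07 arrays alone it was 0.77 with 5 called. In knockout liver the medians were 0.83 with 8 called and 0.71 with 2 called. The within-number rises in wild type were 0.43 (05) and 1.24 (07) for Slc25a20, 0.34 and 1.01 for Decr1, and 0.30 and 0.72 for Hadha, the 05 values lying below the full ones by more than 1.5 times and the 07 values above them by less. Within either set all 8 called genes kept their direction in both genotypes. Leaving out fed WT 4, the array with the highest macrophage markers, kept all 8 wild type calls. The log2 rises were then 0.44 (Hadha) to 0.69 (Hadhb), with limma adjusted p up to 0.0233. The part of macrophages in the fed values was not tested. Without fasted WT 4 and fed KO 4, 8 genes were called in each genotype, with medians of 0.66 and 0.75.

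Loss of vanin-1 gave no call for any of the 10 genes in either feeding state. In fasted liver the log2 differences, knockout minus wild type, ran from 0.0049 (Cpt1a) to 0.27 (Hadhb), all 10 positive, with a median of 0.19 against 0.0014 over all genes. Limma adjusted p lay between 0.867 and 0.997, and 3 of 18820 genes (0.0159%) were called. At an unadjusted p below 0.05 were 3 of the 10, Hadhb, Cpt2 and Acadm, where 5.49% of all genes were. That count was 0 without fasted WT 4, without fasted KO 1, without fasted KO 3 and with 07 arrays alone. It was 5 with 05 arrays alone and 6 when only the fasted groups were fitted. The 10 genes varied together from array to array, so the 3 are not independent of each other. Hadhb was 1.21-fold (95% interval 1.03 to 1.42; limma adjusted p = 0.867), Cpt2 1.20-fold (1.01 to 1.44; limma adjusted p = 0.893) and Acadm 1.20-fold (1.02 to 1.40; limma adjusted p = 0.867) of the wild type level. Fasted arrays did not overlap between genotypes for Cpt2 and Hadha, 2 of 10 genes, against 3.15% of all genes in either direction and 1.65% higher. With each array centred on its median, 0 of the 10 had an unadjusted p below 0.05, the median difference was 0.16, and Cpt1a turned to -0.024.

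In fed liver 6 of the 10 differences were positive and 4 negative, from -0.07 (Hadhb) to 0.22 (Slc25a20), with a median of 0.025 against -0.0066 over all genes. Limma adjusted p lay between 0.892 and 0.986, 0 of 10 genes had an unadjusted p below 0.05 (5.76% of all genes did), and 1 gene in all, Vnn1, was called (0.00531%). The fed arrays overlapped for 10 of 10 genes, where 3.12% of all genes did not overlap. Intervals for the fed differences reached from -0.30 (Hadhb) to 0.55 (Slc25a20) at their widest, and differences up to those ends were not excluded for these genes. The median of the 10 was -0.15 with 05 arrays alone, 0.19 with 07 arrays alone and -0.074 without fed WT 4. The fed difference of Decr1 was 0.09, but -0.35 with 05 arrays alone and 0.53 with 07 arrays alone.

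The fasting response itself was compared between genotypes by the difference of the differences. It was larger in knockout liver for 9 of 10 genes, all but Slc25a20, with a median of 0.084 against 0.0097 over all genes. None passed the test: limma adjusted p lay between 0.948 and 0.998, and 0 of 18820 genes (0.00%) were called, with 924 at an unadjusted p below 0.05 (4.91%). Hadhb, the 1 gene of the 10 with an unadjusted p below 0.05, had the largest value, 0.35 (95% interval 0.02 to 0.67, limma adjusted p = 0.948), followed by Acadm at 0.27 (-0.05 to 0.59, limma adjusted p = 0.948), and Slc25a20 was at -0.0059 (-0.47 to 0.46). The median over the 10 genes was 0.35 with 05 arrays alone and -0.076 with 07 arrays alone, and it was 0.19 without fed WT 4. Averaged over feeding, knockout minus wild type was 0.22 for Slc25a20 (limma adjusted p = 0.807) and 0.19 for Cpt2 (limma adjusted p = 0.799), and no gene of the 10 was called, where 1 of 18820 was (0.00531%). Cpt2 alone of the 10 had an unadjusted p below 0.05 there, against 6.17% of all genes.

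**Figure D4:**
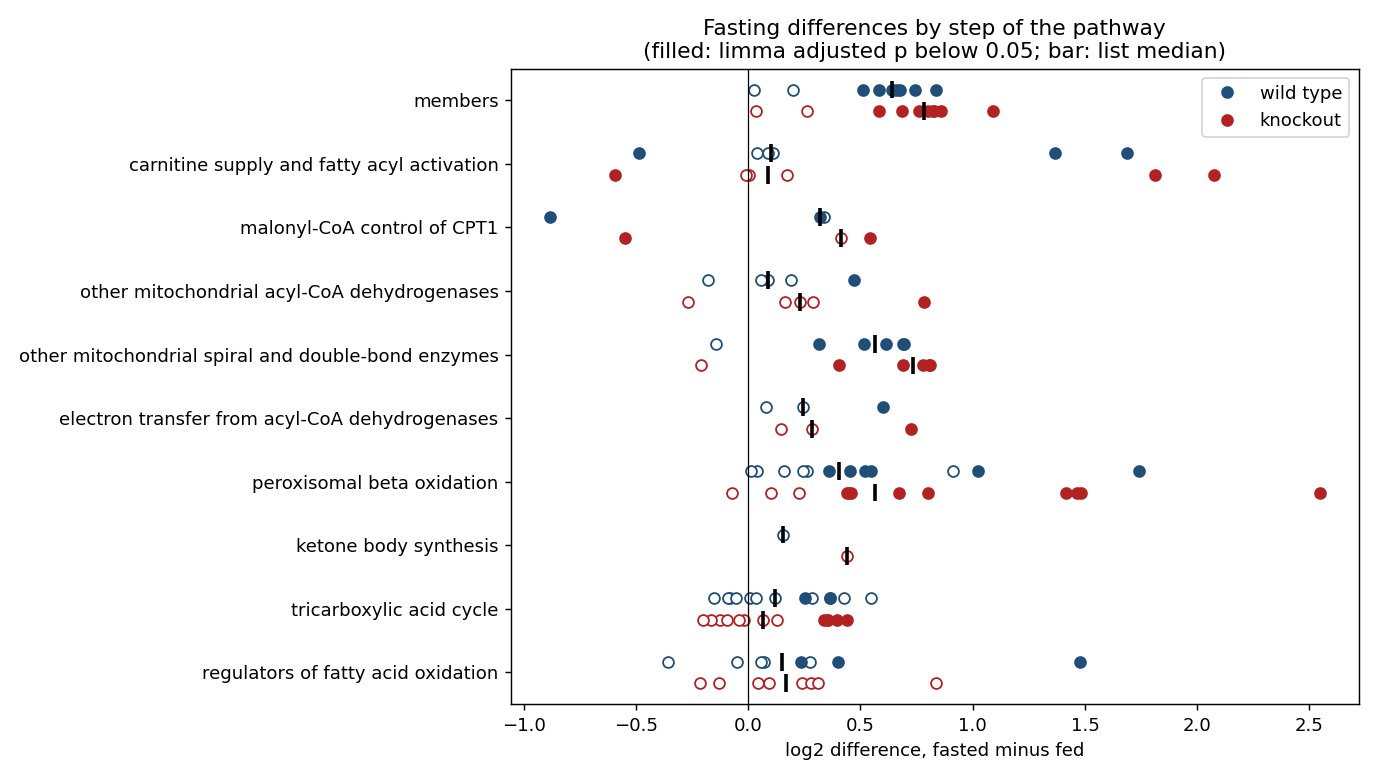
Log2 difference between fasted and fed liver (horizontal axis) for the 10 genes and 9 related lists, 1 point per measured gene, wild type in blue and knockout in red, with a bar at each list's median. Filled points passed the test: 8 of 10 members in each genotype, and Ehhadh is the point farthest to the right, at 1.74 and 2.55.

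Genes that act beside these 10 were read from related lists. For carnitine supply, 2 of 6 measured genes rose and 1 fell in each genotype. Slc22a5, the plasma membrane carnitine transporter, rose 3.22-fold in wild type and 4.22-fold in knockout liver (limma adjusted p = 0.000512 and 4.45e-05). Crat, a carnitine acetyltransferase, rose 2.58-fold and 3.51-fold (limma adjusted p = 0.000362 and 1.36e-05). Tmlhe, the first enzyme of carnitine synthesis, fell by 0.48 and 0.59 on the log2 scale (limma adjusted p = 0.00931 and 0.00157), while Bbox1, its last enzyme, differed by 0.11 and 0.17 and did not pass.

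Malonyl-CoA, the inhibitor of Cpt1a, is made by acetyl-CoA carboxylases and removed by malonyl-CoA decarboxylase (Mlycd). Acaca, the carboxylase of fatty acid synthesis, fell 1.85-fold in wild type and 1.46-fold in knockout liver (limma adjusted p = 0.000464 and 0.00942). Mlycd rose 1.25-fold and 1.46-fold (limma adjusted p = 0.0342 and 0.000757). Acacb, the mitochondrial carboxylase, differed by 0.34 and 0.41 on the log2 scale and did not pass (limma adjusted p = 0.599 and 0.488). Of these 3 genes, 1 rose and 1 fell in each genotype.

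Of 6 other spiral and double-bond enzymes 5 rose in each genotype. Hsd17b10, another hydroxyacyl-CoA dehydrogenase, rose 1.53-fold in wild type and 1.76-fold in knockout liver (limma adjusted p = 0.027 and 0.0037). The enoyl-CoA isomerase gene Eci1 rose 1.62-fold and 1.75-fold, and Ech1, a dienoyl-CoA isomerase gene, 1.61-fold and 1.72-fold. Echs1, the short-chain enoyl-CoA hydratase, was the member that did not pass, at log2 differences of -0.14 and -0.21 (limma adjusted p = 0.503 and 0.275). Of 5 other acyl-CoA dehydrogenases 1 rose, Acad11, by 1.38-fold and 1.72-fold, while Acads, the short-chain enzyme, differed by 0.19 and 0.23 and did not pass. Of the 3 genes for electron transfer from the dehydrogenases, Etfdh, which hands electrons to ubiquinone, rose 1.52-fold and 1.65-fold (limma adjusted p = 0.00164 and 0.000209). Etfa differed by 0.08 and 0.15 and Etfb by 0.24 and 0.28, without passing.

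Peroxisomes shorten very long chains, and 6 of 12 measured genes of peroxisomal beta oxidation rose in wild type and 9 in knockout liver. Ehhadh, the peroxisomal bifunctional enzyme, rose 3.34-fold and 5.84-fold (limma adjusted p = 6.17e-05 and 8.41e-07). Acaa1b, a peroxisomal thiolase gene, rose 2.79-fold in knockout liver (limma adjusted p = 0.00289) and was 1.88-fold higher in wild type without passing (limma adjusted p = 0.0629). Abcd2, a peroxisomal fatty acid transporter gene, rose 2.76-fold in knockout liver (limma adjusted p = 0.0301) and was 1.18-fold higher in wild type without passing (limma adjusted p = 0.791). Its means were 8.31 in fed WT, 7.15 in fed KO, 8.55 in fasted WT and 8.62 in fasted KO. Fed KO 4, the array with the highest acute phase genes, was the lowest fed KO array for Ehhadh, Acaa1b and Abcd2. It lay at 9.90, 10.04 and 6.01, against 10.87 to 10.98, 10.77 to 10.88 and 7.08 to 7.82 on the other fed KO arrays. The part of this array, or of an acute phase response, in the knockout rises of these 3 genes was not tested. The list medians were 0.41 and 0.57 on the log2 scale. In the tricarboxylic acid cycle, which burns the acetyl-CoA, 3 of 13 genes rose in wild type and 5 in knockout liver, with medians of 0.12 and 0.07. Dlst, a subunit of the 2-oxoglutarate dehydrogenase complex, rose 1.29-fold and 1.36-fold, the malate dehydrogenase gene Mdh2 1.19-fold and 1.32-fold, and Ogdh, another subunit of that complex, 1.29-fold and 1.26-fold. The ketone body list had 1 measured gene, Bdh1, which did not pass in either genotype (limma adjusted p = 0.727 and 0.208). Among 8 regulators 3 rose in wild type and 0 in knockout liver by limma, where Ppargc1a, Creb3l3 and Hnf4a had adjusted p of 0.0594, 0.0509 and 0.781. Ppargc1a, a coactivator of oxidative genes, rose 2.78-fold in wild type and was 1.78-fold higher in knockout liver without passing. Ppara itself differed by 0.07 and 0.24 (limma adjusted p = 0.863 and 0.441). Whether any of these responses differed between the genotypes was tested for all genes at once, with 0 calls.

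The genes whose course over the 16 arrays lay closest to the mean course of the 10 were then sought. Closeness was the root mean square difference in log2 units after each gene was centred on its own mean. Ephx2, the soluble epoxide hydrolase gene, was nearest at 0.05, followed by Etfdh (0.06), the peroxisomal Hsd17b4 (0.09), Acad11 (0.09) and Tlcd4 (0.10). Among the 10 themselves Hadha (0.07) and Acadl (0.07) were nearest the mean course, and Acaa2 (0.30) and Hadh (0.22) were farthest. Ephx2 rose by 0.61 and 0.65 on the log2 scale on fasting in wild type and knockout liver (limma adjusted p = 0.0014 and 0.0005), and Tlcd4 by 0.53 and 0.66 (limma adjusted p = 0.0087 and 0.0013). This nearness is a description over 16 arrays that include the feeding difference. Genes picked by it follow the fasting rise of the 10, so the adjusted p of Ephx2 and Tlcd4 give no separate evidence.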

How the data were processed

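Liver RNA of 16 samples was hybridised to whole-transcript arrays. The deposited table's values are log2 intensities that the authors made with RMA, per the submitters' processing notes. No source used here states the RMA version, the library files or the array's genome build. The table comprised 35556 probe sets, of which 21218 carried 1 gene symbol in a platform annotation, 1881 several, and 12457 none listed. The probe set with the highest mean per gene was kept, giving 18820 genes with no filter on dim ones, and all 10 members matched a RefSeq gene by Entrez ID. Start regions were read from a RefSeq table of GRCm38.p6.

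A mean per group was fitted to all 16 arrays with limma 3.58.1 in R 4.3.3 (12 residual and 4.66 prior degrees of freedom), two-sided, with Benjamini-Hochberg adjustment over all genes and calls below 0.05. The procedure was tried on simulated arrays with independent noise per gene and the same spread in every group. The 10 genes varied together and spread most in fed WT, so that trial does not cover these features. The labels do not say that each array is a separate animal, so a p-value measures only how far these samples spread, which may be technical, and 4 arrays a group limit the precision. The members, lists and tests were chosen with earlier results of these data known. Besides the 10 members and Vnn1, the named genes were up to 3 per related list with the largest differences among those called in a fasting comparison, and the 5 nearest in course. Bbox1, Acacb, Acads, Echs1, Etfa, Etfb, Bdh1, Ppara, Col3a1, Lrat, Adgre1, Marco and Tat were named after their values were seen. Some genes of these lists are not analysed here. Alternatives were other scalings, filters, priors, probe set rules, weights, blocks and subsets of arrays, and leaving out each array.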

Additional observations from a re-analysis of the deposited data

Results flagged for a closer look

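Of 40 groups examined (10 genes in 4 groups of 4 arrays), 5 held an array that stood far from its 3 neighbours (Dixon's test at the 95% level), where chance gives about 1 group in 20. Cpt1a lay at 11.408 on fed WT 4, against 11.73 to 11.78 on the other fed WT arrays. On fasted WT 3 it lay at 12.486, against 12.23 to 12.27. Cpt2 lay at 11.369 on fasted WT 4, against 11.46 to 11.47, a gap that is small in size. Acadl lay at 11.072 on fasted WT 3, against 10.89 to 10.91 on its neighbours. Hadhb lay at 10.355 on fed KO 2, against 10.02 to 10.04. The 10 genes varied together from array to array, and fasted WT 3 was flagged for both Cpt1a and Acadl. The 40 groups are therefore not independent, and their count cannot be set against the chance share as if they were.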

How the results depend on the processing

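The count of 8 genes called in each fasting comparison stayed at 8 whichever single array was left out. The alternatives numbered 32 for the comparisons of 2 groups and 31 for the others, and the count was 8 in 27 of them for wild type and in 29 for knockout liver. With only the 05 arrays it was 2 in wild type, with only the 07 arrays 5 in wild type and 2 in knockout liver; these fits had 2 arrays a group. No setting gave a call for a genotype comparison of the 10 genes. With the 05 or 07 number as a block 8 genes were called in wild type and 9 in knockout liver. The replicate block (title number) left 8 and 8 calls and moved no other call of the 10. Of 24 pairs of same-numbered arrays 4 correlated above 0.1 after removal of group means (-0.22 to 0.21). Pairs with different numbers were not compared, so these values do not decide whether the numbers mark a pairing.

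Differences that were not called changed sign under at least 1 alternative for 1 of the 10 genes in wild type fasting, 0 in knockout fasting, 2 in fasted and 10 in fed knockout against wild type, 8 for the difference of the fasting responses and 5 for the average over feeding. For the genes whose values the text gives, these were as follows. Acaa2 in wild type fasting was -0.0026 after renewed quantile normalisation, -0.092 with 05 arrays, -0.020 without the 3 arrays whose name ends in 2, and -0.026 to 0.073 with single arrays left out. In fasted knockout against wild type Cpt1a was -0.024 with median centring, -0.056 with 05 arrays, -0.0092 without fasted WT 4 and fed KO 4, and -0.021 to 0.064 with single arrays left out. In fed liver Slc25a20 was -0.12 and Decr1 -0.35 with 05 arrays, and Hadhb 0.17 with 07 arrays; with single arrays left out Decr1 lay between -0.12 and 0.21. The difference of the fasting responses of Slc25a20 was 0.017 with array weights, 0.49 with 05 arrays against -0.51 with 07 arrays, and -0.13 to 0.18 with single arrays left out. The number of all genes called in wild type fasting, 1432, fell to 880 without fasted WT 4, 829 with only the compared groups, 576 at 0.01, 332 with 05 and 395 with 07 arrays. In knockout fasting 1772 became 964 without the arrays whose name ends in 2, 879 at 0.01, 703 and 188. Median centring turned the wild type balance of 629 higher and 803 lower to 1014 and 542.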
